A study of Mus musculus with 1002 samples.

Results

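The 76 wells described here hold single cells from the utricle of mice at postnatal day 2 (P2), and they differ in the reverse transcriptase that copied their RNA: 33 wells were labelled maxima and 43 smartscribe. They are all the wells of that age that passed the submitters' quality call with either enzyme, out of 861 passed wells among 1002 in the series. Both sets carry one set of other labels: a mix of the C57BL/6 and FVB strains, the genotype Atoh1-EGFP;Pou4f3-DTR, sequencing pool 3, and well volumes of 0.5, 1, 2, 3 and 4, for which no unit is given. Atoh1-EGFP is a green fluorescent reporter named for the transcription factor that starts hair cell formation, and Pou4f3-DTR names a diphtheria toxin receptor tied to a gene of hair cells. The cells were sorted by flow cytometry and made into Smart-seq2 libraries. Which mouse a cell came from, the sorting gate, and whether toxin was given are not in the labels, and the files' entries for the reporter and the receptor hold 0 reads in these 76 wells.

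A reverse transcriptase makes the DNA copy from which every later step of an RNA library is built. Both names belong to engineered forms of the Moloney murine leukaemia virus enzyme, and in Smart-seq2 the enzyme has to start at the poly(A) tail, run to the 5′ end of the RNA and add a few bases there to which the template-switching primer anneals, so an RNA that is not copied to its end is lost. The utricle is a balance organ of the inner ear. Its sensory patch is made of hair cells, which carry the mechanosensitive bundle, and supporting cells, from which new hair cells can still form in newborn mice, and it is surrounded by non-sensory epithelium and lies on mesenchyme.

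With maxima, the median well read 1.98 times as many genes, and the large mitochondrial ribosomal RNA mt-Rnr2 took 7.67 times the share of reads. Cytosolic ribosomal protein genes were higher with maxima, as was the median fold of genes with long transcripts. Transcripts of 4000 bases or more nonetheless took about the same share of reads outside the mitochondrial genome. Those reads include cytosolic ribosomal RNA, which took a larger share with maxima at the median. With smartscribe, genes of the respiratory chain, proteasome subunits, transcripts under 1500 bases, the nuclear RNA Malat1 and polyubiquitin Ubb were higher. The hair cell markers were read in more wells with maxima, and by whole profile 12 of 33 wells (36.4%) stood with hair cells against 11 of 43 (25.6%), or 10 of 29 against 2 of 20 in plate rows E to H. Since no animal is named, each enzyme is 1 sample: the spread given is over wells, levels are CPM (reads of a gene scaled to a fixed total of reads over genes in a well or in all wells of an enzyme), and there is no test of any difference between the enzymes.

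The wells lay in alternate plate columns, and that layout bears on every comparison. Of the 69 maxima wells at P2, 68 were in even columns, and of the 71 smartscribe wells 70 were in odd columns. A passed well labelled maxima (volume 3, row G, column 7) and a passed well labelled smartscribe (volume 4, row C, column 8) sat in the other enzyme's columns. The first had 1.82% of its reads in cytosolic ribosomal RNA, 0.327% in mt-Rnr2 and 1266 genes with a read. In the other 32 maxima wells the 2 RNAs took at least 17.8% and at least 2.33%. The smartscribe well in column 8 had 32.3% and 0.451%, where the other 42 smartscribe wells had at most 26.7% in cytosolic ribosomal RNA and at most 1.75% in mt-Rnr2. By mt-Rnr2 the first went against its label and the second did not, and whether either label was exchanged was not tested. Values without both are given beside the results they touch.

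Plate rows also differed within an enzyme. In rows A to D, 4 of 38 maxima wells passed (10.5%, 95% exact binomial interval 2.94 to 24.8) and 23 of 42 smartscribe wells did (54.8%). The counts for rows E to H were 29 of 31 maxima wells (93.5%, 78.6 to 99.2) and 20 of 29 smartscribe wells (68.97%). The passed maxima wells thus came mostly from rows E to H and the passed smartscribe wells from both. The 140 wells shared 80 plate positions, up to 3 wells to a position, so more than 1 plate was used, but no label names the plate. Enzyme, plate row and cell content can therefore not be told apart in the pooled comparison, and 3 further comparisons are given beside it: rows E to H alone, maxima rows E to H against smartscribe rows A to D, and hair-cell-like wells alone. Of the hair-cell-like wells, 10 of the 12 maxima wells were in rows E to H and 9 of the 11 smartscribe wells in rows A to D, so that comparison does not separate enzyme from row either. The set was taken from clusters of all passed wells in the series, described below. Intervals from here on cover counting error only.

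The enzymes' depths overlapped. Reads per well were 108010, 280300 and 579290 (lowest, median and highest) with maxima and 89774, 201560 and 588500 with smartscribe. Genes with a read per well were 1121, 4620 and 6304 with maxima against 1308, 2334 and 4866 with smartscribe. The ranges overlapped, but 13 of the 33 maxima wells read more genes than any smartscribe well. With every well thinned to 80000 reads, which left no well out, the ratio of the medians went from 1.98 to 1.90, and it was 1.80 where a gene needed 5 reads. In each of the 5 volumes the maxima median was higher, by ratios of 2.06, 1.78, 1.91, 3.58 and 2.15 from volume 0.5 to volume 4. Without the 2 wells outside the layout the ratio was 2.00.

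The size of that ratio moved with the plate rows. In rows E to H the smartscribe wells read 1308, 1617.5 and 2353 genes and the maxima wells 1121, 4468 and 6304, and 26 of the 29 maxima wells lay above every smartscribe well (ratio 2.76). Smartscribe wells of rows A to D read 1768, 3480 and 4866 genes, so the maxima wells of rows E to H stood only 1.28 times above them. Within rows A to D the ratio was 1.42, with 4 maxima wells. The smartscribe medians of the 2 sets of rows, 3480 and 1617.5 genes, were thus about as far apart as the pooled medians of the enzymes.

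**Figure D1:**
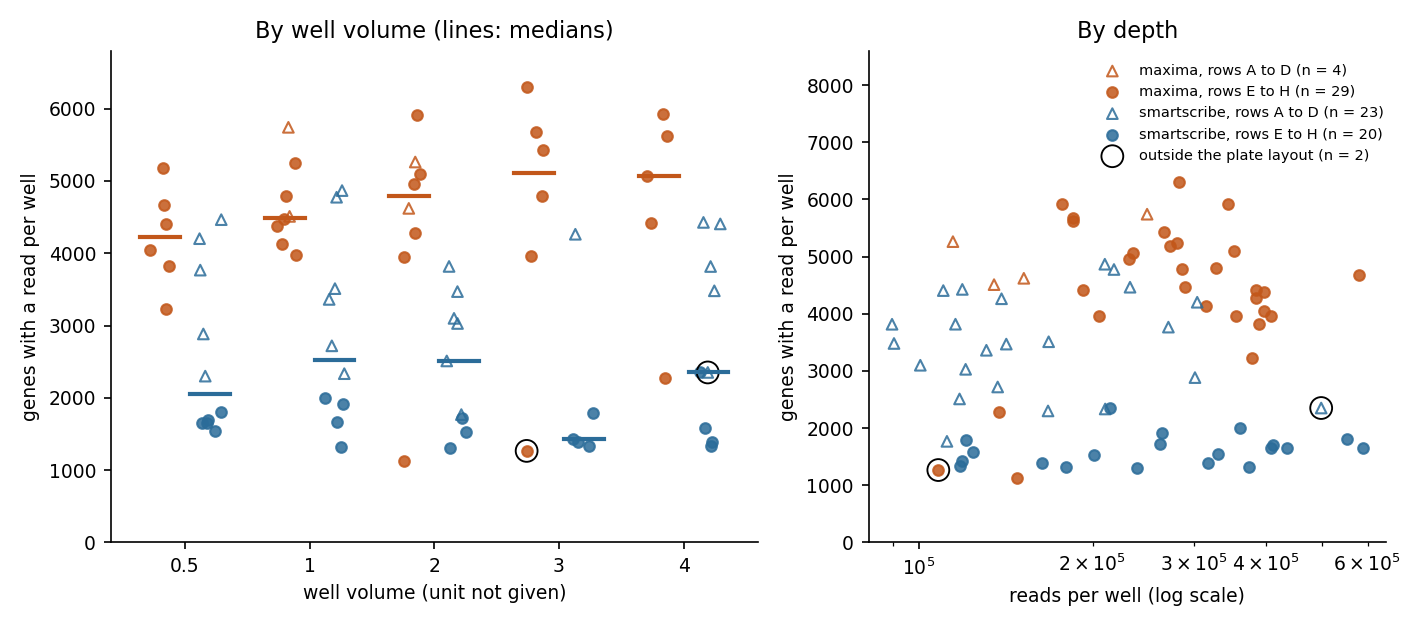
Genes with a read in each passed P2 well, by well volume (left, with a line at the median of each enzyme and volume) and against the well's reads on a log axis (right); triangles are plate rows A to D, circles rows E to H, and rings mark the 2 wells outside the column layout. The maxima medians lie above the smartscribe medians at all 5 volumes, and the lowest smartscribe wells are mostly circles.

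Over all wells of an enzyme, 16302 genes had a read with maxima and 14833 with smartscribe, of which 13256 were shared. The total reads behind these sums were 9138302 and 9885699. The gap was wider for genes read in at least 50% of wells, 3075 against 1108, and 59 against 41 genes were read in every well. By abundance, the enzymes were alike for the highest genes and apart lower down. After thinning, the median well read 82.9% of the genes at 1000 CPM or more with maxima in rows E to H, against 84.3% with smartscribe in rows A to D and 80.7% with smartscribe in rows E to H. For genes at 100 to 300 CPM the same wells read 64.5%, 55.6% and 27.6%, and for genes at 10 to 30 CPM 16.98%, 14.1% and 5.05%.

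Ribosomal RNA made the largest single block of reads. The cytosolic ribosomal RNA entries took 1.82%, 24.9% and 71.5% of a well's reads with maxima (lowest, median and highest) and 0.795%, 8.19% and 32.3% with smartscribe. They are the entries annotated as rRNA together with AY036118, and most of their reads came from 1 entry, CT010467.1 (GRCm38, chr17:39846353-39848827, minus strand, annotated rRNA), singled out after its values were seen, which held 249090 CPM against 74534. It overlaps the lincRNA AY036118 on the same strand (chr17:39847113-39848035), which went the other way at 6255 against 17004 CPM and had 0 reads in all 4 maxima wells of rows A to D. How the counter divided reads between these 2 entries cannot be told from the counts. Of the 29 maxima wells in rows E to H, 28 lay above every smartscribe well, where smartscribe had 0.795%, 1.4998% and 6.92%. The smartscribe wells of rows A to D, without the well in column 8, had 5.97%, 17.3% and 26.7%, so the log2 fold of CT010467.1 was 1.74 pooled, 4.83 in rows E to H, 0.51 for maxima rows E to H over smartscribe rows A to D and 0.90 in hair-cell-like wells. Between the 2 sets of smartscribe rows it was 4.32.

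mt-Rnr2, the large ribosomal RNA of the mitochondrion (chrM:1094-2675), separated the enzymes in every set of rows. Its level was 3268, 37231 and 119070 CPM in the lowest, median and highest maxima well and 1694, 6578 and 17460 in the smartscribe wells. All maxima wells but the one in column 7 lay above every smartscribe well, 32 of 33. The summed level was 44209 against 5762 CPM, a log2 fold of 2.94, with 3.14 in rows E to H, 2.62 in rows A to D, 2.71 for maxima rows E to H over smartscribe rows A to D and 2.41 in hair-cell-like wells. It was again 2.94 without the 2 wells outside the layout. Its neighbour mt-Rnr1, the small mitochondrial ribosomal RNA (chrM:70-1024), went the other way at 414 against 1014 CPM (log2 fold -1.29). The messenger RNAs of the mitochondrial genome were split: mt-Nd4 of complex I was 3777 against 1617 CPM (log2 fold 1.22), while mt-Co1 and mt-Co3 of cytochrome oxidase were 6867 against 10210 (-0.57) and 1148 against 2726 (-1.25). Of the 15 mitochondrially encoded genes measured, 6 were higher and 3 lower with maxima by 1.5-fold. Without the ribosomal RNAs they made up 1.18%, 2.68% and 8.03% of reads with maxima and 1.80%, 3.53% and 7.01% with smartscribe. The share of mitochondrial reads that is often used to judge a cell's condition was 6.55% against 4.05% at the median when mt-Rnr2 was counted, and lower with maxima when it was not.

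**Figure D2:**
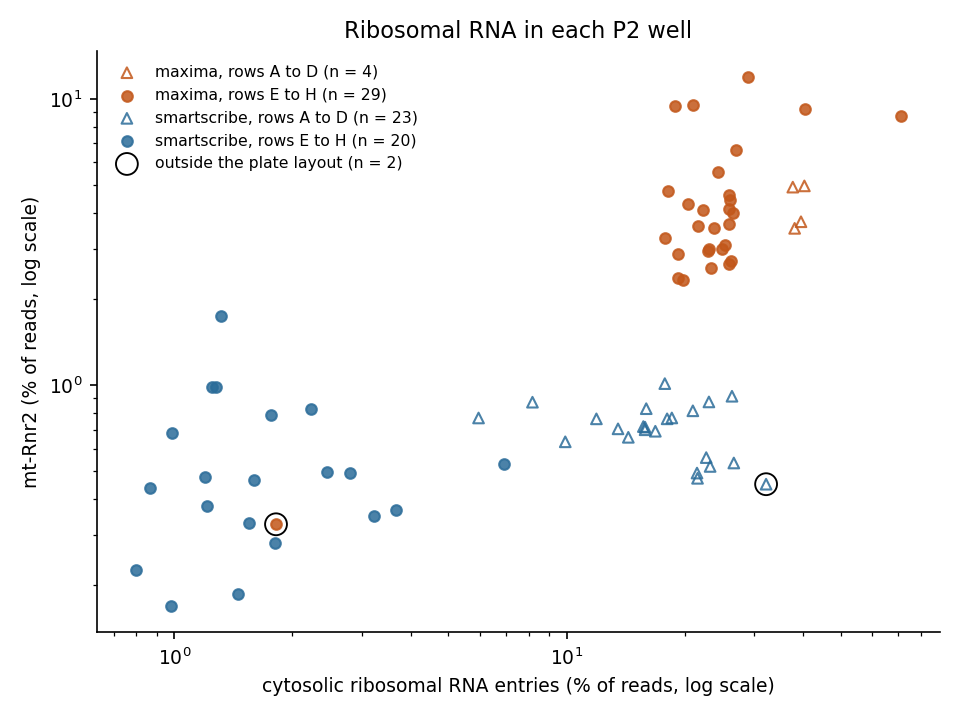
Percent of each passed P2 well's reads in the cytosolic ribosomal RNA entries (x, log axis) and in mt-Rnr2 (y, log axis); triangles are rows A to D, circles rows E to H, rings the 2 wells outside the column layout. mt-Rnr2 sets 32 of the 33 maxima wells above all 43 smartscribe wells, and the ringed maxima well lies among the smartscribe wells at 1.82% and 0.327%.

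Gene by gene, 3394 genes had at least 50 CPM and a read in at least 25% of the wells of the enzyme with the higher level. Of these 680 (20%) were at least 2-fold higher with maxima and 889 (26.2%) at least 2-fold higher with smartscribe. A further count asked for the same direction in each of the 5 volumes, in rows E to H and in the mean over wells, which 9.72% and 9.31% of the tested genes met. Scaling without the cytosolic ribosomal RNA entries turned the balance round, with 1235 and 648 of 4033 genes higher with maxima and with smartscribe. Without the 2 wells outside the layout the counts were 695 and 919. Maxima rows E to H over smartscribe rows A to D gave 694 of 3690 (18.8%) and 811 (22%). The counts were 944 of 2984 (31.6%) and 909 (30.5%) in rows E to H, and 771 of 3742 (20.6%) and 1407 (37.6%) in rows A to D. In hair-cell-like wells 791 of 3977 genes (19.9%) were higher with maxima and 972 (24.4%) with smartscribe. Since the fold is of shares of reads, the median gene shows the scale: the median log2 fold over 9827 genes of at least 10 CPM was -0.00 pooled, 0.35 in rows E to H, 0.05 in hair-cell-like wells, -0.01 for maxima rows E to H over smartscribe rows A to D, and -0.63 in rows A to D, and scaling without the ribosomal RNA entries moved the pooled value to 0.36.

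Among the genes with a steady direction, the largest folds toward maxima were of middle level and sparse in both enzymes. Gna14, a Gq-family alpha subunit (chr19:16435762-16610820), had 74.96 CPM with maxima from 9 wells, up to 479.9 in a well, and 0 reads in all 43 smartscribe wells, so its log2 fold was at least 7.95 against a floor of 3 reads over the enzyme's wells. Med17, a subunit of the Mediator complex, had 0, 0 and 646 CPM in the lowest, median and highest maxima well. It had a read in 2 smartscribe wells (61.4 against 0.405 CPM, 151.7-fold). A single well gave 45.6% of its maxima reads, and the wells of unnamed clusters gave 82.2%. The peroxisomal protease gene Tysnd1 was read in 14 and 1 wells (50.9 against 0.506 CPM, log2 fold 6.65). Hk1, the first enzyme of glycolysis, was read in 16 maxima and 2 smartscribe wells at 52.1 against 1.01 CPM (log2 fold 5.69). In these 4 genes most or many wells of both enzymes were at 0, and the groups overlapped there.

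Kif19a, a kinesin of cilia (chr11:114765388-114790739), was the most widely read gene of this set: it had 0, 96.2 and 610 CPM over the maxima wells, with a read in 21 of 33, and 0, 0 and 57.1 CPM over the smartscribe wells (123.9 against 2.73 CPM, log2 fold 5.50). Lama5, a laminin chain of basement membranes, was 59.6 against 1.62 CPM (5.20). Zfp110, a zinc finger gene, and Usp20, a deubiquitinase, had log2 folds of 5.54 and 5.53. A single well gave 47.8% of the maxima reads of Zfp110. Sema6d, a semaphorin, was 108.1 against 3.03 CPM (5.15), with 89.8% of its maxima reads from hair-cell-like wells. Cog5 of the Golgi tethering complex was 60.1 against 1.92 CPM (4.97), but 1 well with 2444 CPM gave 48.1% of its maxima reads. Atp8a1, a phospholipid flippase, and Ccny, a cyclin, closed the 12 at log2 folds of 4.85 and 4.73.

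Toward smartscribe the 12 largest folds were of genes read in 11 to 25 of the 43 smartscribe wells. Dtnbp1, the dysbindin gene (chr13:44922075-45002147), had 1 read in the maxima wells and 116.6 CPM from 11 smartscribe wells, a ratio of 1066 with a 95% counting interval of 190.9 to 42130. Sept2, a septin, was read in 5 maxima wells (0, 0 and 142.7 CPM) and in 22 smartscribe wells (0, 4.60 and 3775 CPM), and was 56.3-fold higher with smartscribe (7.99 against 450 CPM). The table holds 2 entries with that symbol, and this is the one whose identifier is not in the annotation used here. Itpripl1, Tmem170 and Ccm2, the last a scaffold protein of blood vessels, had log2 folds of -5.02, -4.37 and -3.93. A single well gave 50.1% of the smartscribe reads of Tmem170. Car3, a carbonic anhydrase abundant in mesenchyme and fat, was 474 against 10252 CPM (-4.44), where 72.3% of the smartscribe reads came from mesenchyme-like and 27.3% from non-sensory-epithelium-like wells. Cdk6, a kinase of the G1 phase, had 86.7% of its smartscribe reads in mesenchyme-like wells (7.55 against 150 CPM, -4.31). Itpripl1 had 68.95% of its smartscribe reads in mesenchyme-like wells. For Car3, Cdk6 and Itpripl1 the wells that carried most of the reads were also more numerous with smartscribe.

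Sec63 of the endoplasmic reticulum's translocation machinery (-3.67) and Copz2 of the COPI coat (-3.63) were also higher with smartscribe. So were the Wnt pathway transcription factor Tcf7l2 (-3.59) and the deubiquitinase Yod1 (-3.48). A single well gave 52.8% of the smartscribe reads of Sec63 and 45.3% of those of Yod1. Mesenchyme-like wells gave 58.3% of the smartscribe reads of Copz2, and non-sensory-epithelium-like wells 59.95% of those of Tcf7l2. Both classes had more wells with smartscribe, though the non-sensory-epithelium-like numbers moved with the cluster settings, as given below. Gnai2, an inhibitory G protein subunit, was read in as many wells with either enzyme, 23 and 25, at 0, 5.41 and 103.9 CPM with maxima and 0, 8.28 and 907 with smartscribe. Its summed level was 14.9 against 182.5 CPM (-3.62), and it was -4.53 in hair-cell-like wells. The maxima wells with a read of Gnai2 thus held few reads of it, where the smartscribe wells ranged higher.

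Some genes were named for the gap in the share of wells with a read after thinning, and their wells are given here over all reads. The splicing factor gene Sf1 had a read in 31 maxima and 8 smartscribe wells, at 76.8 against 21.7 CPM (log2 fold 1.82). Ubxn6, a cofactor of the p97 ATPase, was read in 27 and 7 wells (137.5 against 9.61 CPM, 3.84). Srgap3 was read in 25 and 5 (1.52) and Dgcr2 in 26 and 5 (135.9 against 12.3 CPM, 3.46). A single well gave 85.7% of the smartscribe reads of Srgap3, 80.3% for Dgcr2, 57.9% for Ubxn6 and 55.35% for Sf1. Rps12, a ribosomal protein of the small subunit, had 0, 141.2 and 404 CPM with maxima against 0, 0 and 254.3 with smartscribe, and 32 of 33 maxima wells held a read against 21 of 43. Nfat5, the transcription factor of the osmotic response, was read in 28 and 11 wells with a fold of 0.86, and of -1.38 in hair-cell-like wells. In the other direction, Actr2, a subunit of the Arp2/3 complex, was read in 11 maxima and 26 smartscribe wells (-2.46, but 0.43 in hair-cell-like wells). Ube2m, which conjugates NEDD8, was read in 3 and 16 (-4.80), Pdcd4, an inhibitor of translation, in 17 and 30 (-0.89), and Lgr4, a receptor for R-spondins, in 16 and 26 (24.4 against 227.6 CPM, -3.22, with 58.7% of the maxima reads in 1 well). The antisense entry CT009486.1 was read in 25 and 39 (-1.24). Whether the counting used strand is not given in the sources used here, so reads of an antisense entry and its partner gene cannot be told apart.

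Several gene classes leaned one way, while others were split. Of the 80 cytosolic ribosomal protein genes measured, those of at least 10 CPM in either enzyme, 46 were at least 1.5-fold higher with maxima and 3 lower. Over all 9827 measured genes 37.2% were higher and 36.6% lower by that fold. The class median was a log2 fold of 0.76. It was 0.56 in rows E to H (40 higher and 4 lower, where 47.1% and 35.9% of all genes were), 1.10 for maxima rows E to H over smartscribe rows A to D (66 and 2 of 81, against 35.6% and 34.5%) and 1.04 in hair-cell-like wells (60 and 1 of 80, against 38% and 34.5%). In rows A to D, with 4 maxima wells, it was 0.18 where the median of all genes was -0.63. These genes have processed pseudogene copies, which can share their reads, so single members are uncertain. Rpl39 had a summed level of 137.9 against 23.9 CPM (log2 fold 2.53) and Rpl8 506 against 131.8 (1.94, but -0.48 in rows A to D), while Rpl35 at 156.2 against 258.4 (-0.73) and Rps19 at 286.5 against 427 (-0.58) were lower. Elongation factor Eef2 was 0, 1079 and 2260 CPM with maxima and 0, 171.4 and 1094 with smartscribe, 4.34-fold higher in the sum. Eef1a1, which delivers aminoacyl-tRNA to the ribosome, was 0.96, and the cap-binding Eif4e was -1.09. Translation factors as a list were evenly split, 20 higher and 20 lower of 59.

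Nuclear genes of the respiratory chain were lower with maxima, 53 of 71 measured against 5 higher, with a class median of -1.02. The median was -1.27 in rows E to H (52 of 71 lower), -0.59 for maxima rows E to H over smartscribe rows A to D (36 of 70) and -0.65 in hair-cell-like wells (38 of 71). Ndufb8 of complex I had 0, 69.9 and 224.8 CPM with maxima and 0, 257.4 and 3557 with smartscribe, a log2 fold of -2.77. Uqcr11 of complex III had 51.5 against 222.5 CPM (-2.11), and Ndufa7 of complex I 72.01 against 309.3 (-2.10). Atp5b, the catalytic subunit of ATP synthase, went the other way at 980 against 654 CPM (0.58). Per well, the class took 0.0240%, 0.918% and 1.49% of reads outside the mitochondrial genome with maxima and 0.660%, 1.23% and 2.5% with smartscribe. The wells thus overlapped although most genes leaned one way. Without the 2 wells outside the layout the class medians were 0.71 for ribosomal proteins and -1.06 for the respiratory chain.

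Proteasome subunits were lower with maxima in 23 of 36 and higher in 2, at a median of -0.70. In rows E to H, for maxima rows E to H over smartscribe rows A to D and in hair-cell-like wells the medians were -0.73, -0.74 and -0.62. Psmb2 and Psmb6, subunits of the catalytic core, had 115.9 against 489 CPM (-2.08) and 167.3 against 618 (-1.88). Psmd4, a ubiquitin receptor of the proteasome, had 0, 79.4 and 255.2 CPM over the maxima wells and 0, 365.6 and 2728 over the smartscribe wells (-2.02). Ubb, a polyubiquitin gene (chr11:62551171-62553213) singled out after its values were seen, had 0, 4123 and 17804 CPM with maxima and 2330, 15683 and 31899 with smartscribe, a fold of -1.71 (-1.59 in hair-cell-like wells), and 14 of the 43 smartscribe wells lay above every maxima well. The replication-dependent histones, whose mRNAs end in a stem-loop and lack a poly(A) tail, were lower in 5 of the 7 measured (-0.77) and in all 11 measured in hair-cell-like wells (-1.95).

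Heat shock genes were higher with maxima in 5 of 10 and lower in none, at a median of 0.61, of which Hsph1, an HSP110 chaperone, had 149.4 against 43.5 CPM (1.78). In rows A to D their median was -0.04, where that of all measured genes was -0.63. Of the 14 immediate early genes, 5 were higher and 1 lower (0.42). Over all measured genes 37.2% were higher and 36.6% lower, so the share of immediate early genes that were higher was near that of all genes. Egr2 was read in 19 and 7 wells (116.8 against 12.5 CPM, 3.22, but -0.98 in rows A to D), Junb was 362.1 against 125.8 CPM (1.52), and Jund was lower at 3.61 against 22.9 CPM (-2.66). In hair-cell-like wells 8 of 12 immediate early genes were higher with 1 lower (1.58), where 38% and 34.5% of all measured genes were. Both lists hold genes known to respond to cell handling, and the part of handling in these values was not tested.

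Among RNAs that are not translated, Malat1, a long RNA kept in the nucleus (chr19:5795690-5802672), had 437, 7968 and 24794 CPM with maxima and 782, 25569 and 53606 with smartscribe, with 22 of the 43 smartscribe wells above every maxima well. The sum was 2.84-fold higher with smartscribe (log2 fold -1.51, and -0.83 in hair-cell-like wells). LincRNA entries were lower with maxima in 45 of 74 and higher in 19 (-1.17), and antisense entries in 40 of 62 and 16 (-1.50), with the limit on strand given above. The zinc finger genes named Zfp were not shifted as a class, with 70 higher and 51 lower of 160 (0.14, between -0.16 and 0.66 over 5 scalings of the reads). Collagens were also close to the median gene, 10 higher and 8 lower of 24.

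**Figure D3:**
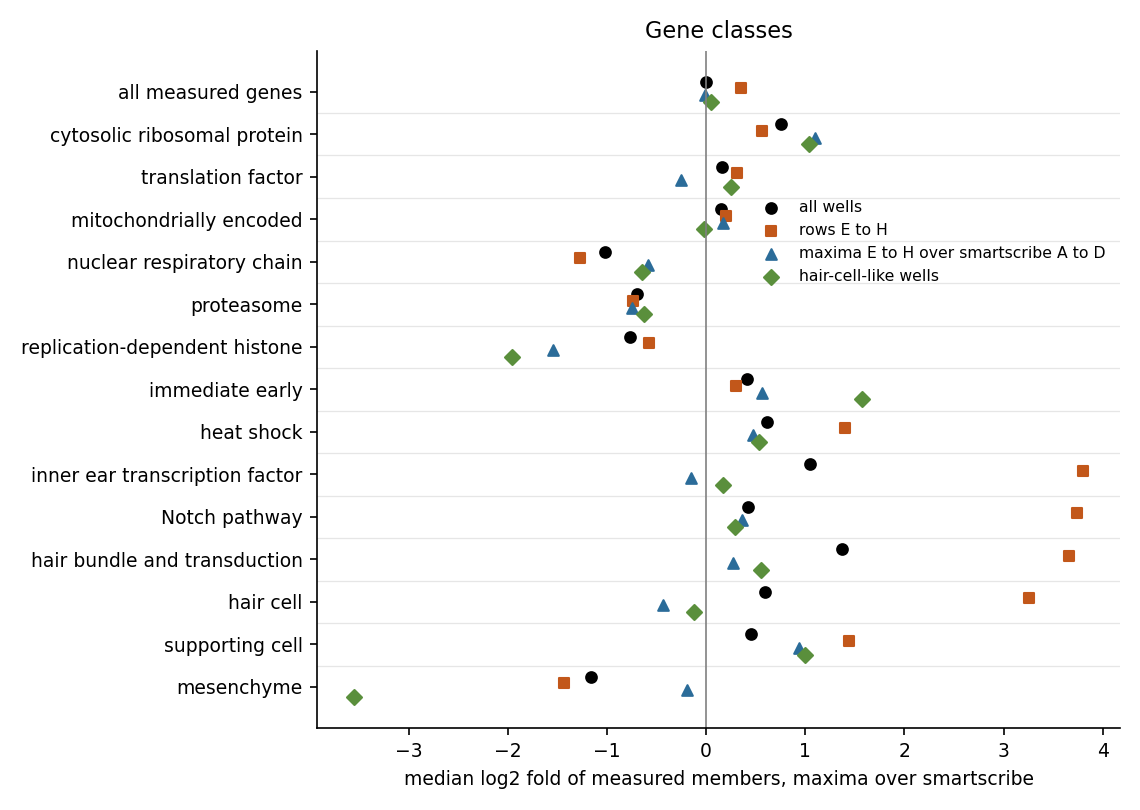
Median log2 fold of maxima over smartscribe for 14 gene lists and for all measured genes, in all wells, rows E to H, maxima rows E to H over smartscribe rows A to D, and hair-cell-like wells. Ribosomal protein genes lie to the right of 0 and respiratory chain and proteasome genes to the left in all 4 series, while the hair cell lists lie far to the right only in rows E to H.

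The class differences ran along transcript length. Genes were binned by their longest annotated transcript, and the median log2 fold rose in each bin from -1.03 under 1000 bases through -0.82 (1000 to 1500), -0.31 (1500 to 2500), 0.24 (2500 to 4000) and 0.31 (4000 to 6000) to 0.40 at 6000 bases or more. Under 1000 bases, 14.6% of 520 genes were 1.5-fold higher and 61.2% lower, and at 6000 or more 45.5% of 1508 were higher and 28.6% lower. Relative to the median of all genes in the same comparison, the shortest and longest bins stood at -1.40 and 0.40 in rows E to H, at -0.71 and 0.50 for maxima rows E to H over smartscribe rows A to D, at -0.62 and 0.58 in rows A to D, and at -0.51 and 0.44 in hair-cell-like wells. Smartscribe rows A to D against its own rows E to H did not follow that order, with -0.72 for the shortest and -0.18 for the longest bin. Of reads outside the mitochondrial genome, with cytosolic ribosomal RNA counted in, transcripts under 1500 bases took 6.84%, 12.8% and 20.7% in a maxima well. In a smartscribe well they took 15.4%, 22.9% and 33.3%. Transcripts of 4000 bases or more took 21.1% against 22.2% of the same reads at the median. The median length of the genes a well detected was 3249.5 bases with maxima and 2803 with smartscribe. A pair of classes of like length stood on opposite sides of that run. The longest transcripts of the measured ribosomal protein genes had a median of 1100 bases and those of the respiratory chain genes 1046, and their median log2 folds were 0.76 and -1.02.

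By GC content the pooled medians rose from -0.29 under 42% to 0.43 at 58% or more (47% higher and 30.2% lower of 713). That rise was not kept by all the comparisons beside it. At 58% or more the median stood 1.57 above that of all genes in rows E to H, 0.26 in hair-cell-like wells, 0.15 for maxima rows E to H over smartscribe rows A to D, and -0.01 in rows A to D. Between the 2 sets of smartscribe rows, A to D over E to H, it was 0.99. After thinning, the median smartscribe well read 36.4% of GC-rich genes in rows A to D and 11.7% in rows E to H, and the maxima wells of rows E to H 45.7%. For GC content the plate rows of smartscribe thus differed more than the enzymes did outside rows E to H.

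**Figure D4:**
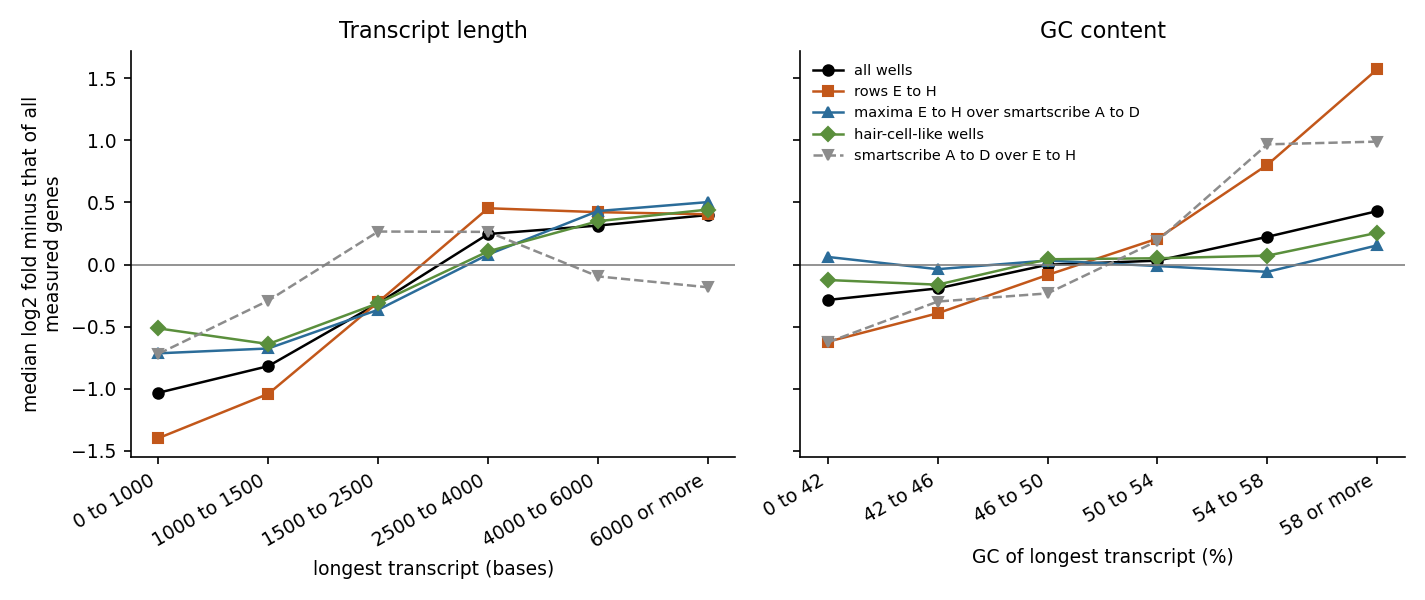
Median log2 fold minus the median of all measured genes, by longest-transcript length (left) and GC content (right), for 4 comparisons of maxima over smartscribe and for smartscribe rows A to D over rows E to H. The 4 enzyme series lie below 0 under 1500 bases and above 0 from 2500 bases. By GC content the lines of all wells, of rows E to H and of smartscribe against itself rise. Those of hair-cell-like wells and of maxima rows E to H over smartscribe rows A to D stay between -0.16 and 0.26.

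Genes that define the cells were next compared. Over all wells the 21 markers of hair cells had a median of 0.60, with 11 of them higher by 1.5-fold with maxima and 3 lower. Of the 24 genes of the hair bundle and its transduction machinery, 22 were measured, with 14 higher and 2 lower (1.37). Transcription factors of the inner ear were higher in 12 of 18 (1.05). Where rows E to H were taken alone, in which only 2 of 20 smartscribe wells were hair-cell-like, these medians were 3.26, 3.66 and 3.80. For maxima rows E to H over smartscribe rows A to D they were -0.44, 0.27 and -0.15, and in hair-cell-like wells -0.13, 0.55 and 0.17. Of the 3 lists, only the hair bundle list kept 1 direction through these 4 comparisons, and in rows A to D its median was 0.37. In bulk sums, fewer cells of a type and less RNA per cell cannot be told apart, and the number of hair cells in a set of wells moved with the result.

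Within hair-cell-like wells, 12 of maxima and 11 of smartscribe, single hair cell genes went both ways. Otof, which encodes otoferlin, the calcium sensor of the hair cell synapse (chr5:30367062-30461932), had 0, 1420 and 3581 CPM with maxima and 288.8, 753 and 2705 with smartscribe (log2 fold 0.71). Xirp2, an actin-binding protein of the bundle, was 508 against 242.4 CPM (1.07), Ptprq, a phosphatase at the base of stereocilia, 965 against 656 (0.56), Myo7a, a bundle myosin, 242.9 against 166.04 (0.55), and Strc, which encodes stereocilin, 35.7 against 14.4 from 10 and 3 wells (1.31). Acbd7 was lower with maxima at 0, 314.3 and 699 CPM against 127.1, 881 and 2277 (-1.64), and so were Cib2, a calcium-binding partner of the transduction channel (333.4 against 1052, -1.66), Ccer2 (882 against 2049, -1.22), the annexin Anxa4 (439 against 1007, -1.20) and parvalbumin Pvalb (30.5 against 155.9, from 4 and 8 wells, -2.35). For each of these genes the ranges of the 2 enzymes overlapped.

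The genes of the genotype had no steady direction. Pou4f3 had 391 against 258.9 CPM over all wells, with a read in 13 and 11 wells and a log2 fold of 0.60. Within hair-cell-like wells it was 113.5, 1148 and 1879 CPM with maxima and 588, 1239 and 2751 with smartscribe (-0.26), and for maxima rows E to H over smartscribe rows A to D -0.44, but 2.78 in rows E to H. Atoh1 was read in 7 and 5 wells at 55.6 against 22.5 CPM (1.31, and -3.55 in rows A to D). In rows E to H it had 0 smartscribe reads, a log2 fold of at least 6.85. The sign of both thus depended on which wells were set against each other.

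Notch pathway genes were near even, with 6 higher and 3 lower of 14 measured (0.43, between -0.02 and 0.89 over 5 scalings). Dll1, a Notch ligand of young hair cells, was read in 9 and 2 wells (37.4 against 2.63 CPM, 3.83), and Jag1, a ligand of supporting cells, was 28.1 against 75.3 (-1.42, but 0.02 in hair-cell-like wells). Eya1, an early transcription cofactor of the ear, was read in 27 and 10 wells (120 against 27.8 CPM, 2.10, but -0.01 in hair-cell-like wells). Of the markers of supporting cells, 4 of 9 were higher and 2 lower (0.45). The tectorial and otolithic matrix genes Otog and Otoa were 736 against 221.9 CPM (1.73) and 104.2 against 26.4, the latter read in 19 and 5 wells (1.98). Mesenchymal markers were lower with maxima in 6 of 9 and higher in none (-1.16), with 4 mesenchyme-like wells against 10. Otor was 2818 against 14628 CPM, from 5 and 12 wells, and the proteoglycan decorin, Dcn, 67.1 against 737 from 3 and 10. For maxima rows E to H over smartscribe rows A to D the mesenchymal median was -0.19. Cell cycle genes were lower in 6 of 10 and higher in 1 (-1.45). At least 3 of the 5 markers of blood were read in 1 smartscribe well and in 0 maxima wells.

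What these differences did to the reading of cell types was counted per well. At least 3 of the 21 hair cell markers had a read in 19 of 33 maxima wells (57.6%, 95% exact binomial interval 39.2 to 74.5) and in 11 of 43 smartscribe wells (25.6%, 13.5 to 41.2). The excess lay in wells with few markers. With smartscribe 32 wells had 0 to 2 markers, 11 had 13 to 21 and no well lay between. With maxima 14 wells had 0 to 2, 8 had 3 to 7 and 11 had 17 to 20. These ranges were chosen after seeing the data. With a minimum of 5 reads per marker the wells with at least 3 numbered 15 and 11, and after thinning 16 and 11. In rows E to H the counts were 16 of 29 and 2 of 20, and in smartscribe rows A to D 9 of 23 (39.1%). Without the 2 wells outside the layout the shares were 59.4% and 26.2%.

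Outside the hair-cell-like set, where most hair cell markers should be lacking, 9 of the 21 markers had no read with either enzyme, 9 were read in a larger share of maxima wells and 3 in a larger share of smartscribe wells. Of 21 such maxima wells 17 had a read of Myo6, a myosin also made in other epithelia, against 11 of 32 smartscribe wells. Anxa4 was read in 8 against 5, Cib2 in 7 against 6 and Cacna1d, the calcium channel of the hair cell synapse, in 5 against 0. Otof was read in 0 of the 21 and 0 of the 32. Taken as 3 over the number of wells, these counts allow up to 14.3% and 9.38% of such wells. The hair-cell-like set was itself named from these 21 markers, Otof among them. Low counts outside it are thus partly fixed by how the set was made, and do not measure how specific a marker is. The genes read more often with smartscribe, Pvalb, Ptprq and Espn, were read in 0, 0 and 1 maxima wells and in 1, 1 and 2 smartscribe wells.

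At least 3 supporting cell markers of 11 were read in 18 of 33 maxima wells (54.5%) and 12 of 43 smartscribe wells (27.9%), and 3 non-sensory epithelium markers in 13 and 8, while 3 mesenchyme markers were read in 4 and 12. Wells with 3 or more markers of at least 2 of these lists, which by markers alone have no single type, were 18 of 33 with maxima (54.5%, 36.4 to 71.9) and 5 of 43 with smartscribe (11.6%, 3.89 to 25.1). With 5 reads per marker they were 10 and 3. The supporting cell and non-sensory epithelium lists were met together in 11 maxima and 5 smartscribe wells, and in 7 and 3 with 5 reads. At least 3 hair cell and 3 supporting cell markers were read together in 6 maxima wells and in 0 smartscribe wells, and in 3 and 0 with 5 reads. For a count of 0 of 43 the 95% exact binomial interval reaches 8.22%. Wells with 3 markers of no list were 0 with maxima and 5 with smartscribe, and 2 and 8 with 5 reads. Exactly 1 list was met by 15 of 33 maxima wells and 33 of 43 smartscribe wells, and by 21 and 32 with 5 reads.

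Clusters of whole profiles were read next. All 861 passed wells were clustered together, and clusters were called hair-cell-like and so on from marker lists. At P2 the maxima wells comprised 12 hair-cell-like, 8 supporting-cell-like, 2 non-sensory-epithelium-like and 4 mesenchyme-like wells and 7 in unnamed clusters. The smartscribe wells comprised 11, 7, 12 and 10, with 3 unnamed. The hair-cell-like numbers were 12 and 11 again when values were centred within each enzyme and at resolutions of 0.5 and 2, but 0 and 0 when clusters were named by the ratio of summed CPM. The other classes moved, since non-sensory-epithelium-like wells were 4 and 12 with centring, 3 and 12 at resolution 2 and 0 and 0 at resolution 0.5. Genes that differ between the enzymes took part in the clustering, so these numbers describe the clusters and are not a comparison of cell make-up. In hair-cell-like wells the median number of hair cell markers with a read was 18 with maxima and 17 with smartscribe, from 7 to 20 and from 13 to 21. The maxima well with 7 also had a read of 5 supporting cell and 3 non-sensory epithelium markers.

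At resolution 1 the same class was nonetheless held by different clusters. Of the 12 hair-cell-like maxima wells, 10 were in 2 clusters that held no smartscribe well of any age. Of the 11 smartscribe wells, 9 were in a cluster of 41 wells, which also held the other 2 maxima wells. Those 9 were all from rows A to D. At resolution 2, a hair-cell-like cluster held 7 P2 maxima and 3 P2 smartscribe wells and another held 1 and 6. Others there without a P2 smartscribe well held 3 and 1 P2 maxima wells. Hair-cell-like clusters without a smartscribe well held 7 and 5 P2 maxima wells with centring, and 6 and 3 at resolution 0.5. A further cluster of 81 wells, named non-sensory-epithelium-like, took 10 P2 smartscribe wells and no P2 maxima well. An unnamed cluster without a smartscribe well of any age took 6 P2 maxima wells. That cluster had 2 of the 3 markers needed for a name. Apoe, Cldn4, Pla2g7 and Mia were among the top 10 genes of both clusters. At resolution 0.5 an unnamed cluster with these genes in its top 10 held 7 P2 maxima and 10 P2 smartscribe wells. The numbers of non-sensory-epithelium-like wells, 2 and 12, thus rest on the naming cut-off. Mesenchyme-like wells of both enzymes shared 1 cluster, 4 and 10.

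At P4 the series holds both enzymes again, but maxima in wildtype cells of pool 7 and smartscribe in 2 single-genotype sets of pool 3, so pool, genotype and enzyme cannot be told apart there and the values are only set side by side with those of P2. The median number of genes was 3396 over the maxima wells, of which 85 were in rows A to D and 74 in rows E to H, and 4192.5 and 4067 over 78 Atoh1-EGFP and 72 Pou4f3-DTR smartscribe wells, a ratio of 0.820 where P2 had 1.98. Cytosolic ribosomal RNA took 6.51% with maxima and 29.6% and 33.5% with smartscribe, and mt-Rnr2 0.596%, 0.579% and 0.685%. At P6 all passed wells were of maxima, and mt-Rnr2 took 1.60% in Pou4f3-DTR and 0.879% in wildtype wells. At the median, the maxima wells of the later ages thus had fewer genes, less ribosomal RNA and less mt-Rnr2 than those of P2, and the P2 smartscribe wells of rows E to H had less ribosomal RNA and fewer genes than the P4 smartscribe wells.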

How the data were processed

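The deposited table holds expected counts for 1002 wells, which the authors made with STAR 2.5.3a and RSEM 1.3.0 on mm10, per the submitters' processing notes. For the gene annotation and for strand-specific counting the labels and notes give nothing. Of its 52730 entries 52636 are genes, and 52489 of these matched GENCODE M21 (GRCm38) identifiers, from which coordinates, longest-transcript length and GC content were taken. The expected counts deposited were rounded to whole numbers (84.6% of nonzero values already were). No wells held identical values. Groups, volumes and the quality call come from the labels, and no columns were left without a sample.

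Reads were summed per enzyme and scaled by the total over genes to CPM. A sum under 3 reads was set to 3 reads for folds. Genes of at least 10 CPM in either enzyme counted as measured for gene lists, with 1.5-fold as higher or lower. Genes of at least 50 CPM with a read in 25% of wells of the higher enzyme entered the 2-fold counts. Detection was also computed with each well thinned to 80000 reads. Poisson and Clopper-Pearson intervals are at 95% and cover counting error only. With 1 sample per enzyme no test was made. The single-enzyme sums were computed with numpy 2.4.6, pandas 2.3.3 and scipy 1.17.1, and the fold script was tested on simulated data.

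Clusters of the 861 passed wells came from scanpy 1.11.5 with igraph 0.11.9 (10000 counts per well, log values, 2000 variable genes, 30 components, 15 neighbours, Leiden resolution 1). Doublets were not called. A cluster took a class from at least 3 markers of its list among its top 50 genes. Genes were first ranked by the ratio of summed CPM plus 1, which named no hair cell cluster. The ranking was changed to the difference of mean log values after seeing the data.

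Genes were named by rule: the 12 largest folds in each direction of at least 2-fold with that direction in all 5 volumes, in rows E to H and in the mean over wells, the 6 largest gaps in the share of wells after thinning, Atoh1, Pou4f3, and members of the gene lists. The rule passed over pseudogenes, sex-linked markers and gene models without a common symbol. Wells, lists, rule and comparisons were chosen with earlier results of these data known. Alternatives were other scalings, filters, folds and detection limits, plate rows, volumes left out in turn, thinning, and cluster settings. Those that set maxima rows E to H against smartscribe rows A to D, use rows A to D alone, leave out hair-cell-like wells of rows E to H, scale or thin without ribosomal RNA, change the cluster naming, or leave out the 2 wells outside the column layout were chosen after seeing the data.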

Additional observations from a re-analysis of the deposited data

Results flagged for a closer look

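Within each enzyme and volume, genes per well, cytosolic ribosomal RNA and mt-Rnr2 were checked for a well set apart from the rest (a highest or lowest well whose gap to the next, over the group's range, passed Dixon's 95% critical value), 30 groups in all, of which chance alone flags about 1 in 20; 8 groups had one. At volume 2 a single maxima well had the lowest number of genes, 1121, and the highest shares of ribosomal RNA, 71.5%, and of mt-Rnr2, 8.74%. The flagged groups are thus not all of separate wells. At volume 0.5 a maxima well had 40.5% ribosomal RNA. At volume 3 the maxima well outside the column layout had the lowest ribosomal RNA share, 1.82%. Among smartscribe wells, the single well of volume 3 in rows A to D had 4262 genes and 15.7% ribosomal RNA, above the other 4 wells of that volume in rows E to H, and volume 4 held one with 1.75% in mt-Rnr2.

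The ratio of maxima to smartscribe went one way at P2 and the other at P4. For the median number of genes it was 1.98 and 0.820, and for the median share of cytosolic ribosomal RNA 3.05 and 0.209. At P4 the median log2 fold of maxima over smartscribe was 0.77 over all measured genes. It was 1.32 for ribosomal proteins, 0.51 for the respiratory chain, 0.22 for the proteasome and 0.65 for transcripts under 1500 bases. These differences between P2 and P4 were not tested, and enzyme, genotype and pool cannot be told apart at P4.

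Wells that failed the submitters' quality call held signal that the comparisons above do not use. In rows A to D, 14 failed maxima wells had at least 1000 genes, with 1393, 3162.5 and 5717 genes (lowest, median and highest) from 5751, 30738 and 92612 reads and 3.20%, 4.90% and 13.3% of reads in mt-Rnr2. At least 3 hair cell markers were read in 8 of the failed maxima wells with at least 1000 genes, and in 1 of the 13 such smartscribe wells, which had 1062, 2076 and 3207 genes and 0.531%, 0.692% and 1.99% in mt-Rnr2. All 14 failed maxima wells thus lay above those 13 failed smartscribe wells in mt-Rnr2.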

How the results depend on the processing

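Among the alternative values for the shares of genes past 2-fold, the ratio of genes per well, class medians and cell type shares, 28 moved, 1 changed sign and the others stayed close to the value reported. No paired analysis was possible because no label gives a replicate number or an animal.

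The ratio of genes per well was 2.76 in rows E to H. In rows A to D it was 1.42, and for maxima rows E to H over smartscribe rows A to D lower still. Both of these lay inside the tolerance although they were well under the pooled 1.98. Of tested genes, 20% were 2-fold higher with maxima and 26.2% with smartscribe. With a filter of 10 CPM and 10% of wells these were 32.3% (2768 genes) and 21.5% (1844), with no filter 35.2% (5781) and 25.2% (4142), and at 4-fold 7.25% and 6.39%. Scaling without ribosomal RNA gave 30.6% and 16.1% (1235 and 648 genes). The maxima share was 31.6% in rows E to H and 34.4% there without hair-cell-like wells, and the smartscribe share 37.6% in rows A to D. Leaving out each volume gave 20.2% to 24.1% and 25.7% to 28.3%.

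For maxima rows E to H over smartscribe rows A to D, the ribosomal protein median was 1.10 and the respiratory chain median -0.59. In rows A to D alone the medians were 0.18 for ribosomal proteins, -1.42 for the proteasome, -1.26 for transcripts under 1500 bases and -0.63 for 58% GC or more. That last one changed sign, with all genes there at -0.63. In hair-cell-like wells they were -0.65 for the respiratory chain and -0.53 for short transcripts, against -0.90 in all wells. Transcripts of 58% GC or more were at 1.92 in rows E to H and 1.59 there without hair-cell-like wells, where the respiratory chain was at -1.39. Scaling without ribosomal RNA gave -0.73 for the respiratory chain and -0.41 for the proteasome. Of the smartscribe wells in rows E to H, 10% had 3 hair cell markers and 10% were hair-cell-like. The first cluster naming gave 0 hair-cell-like wells for both enzymes. Why these moved was not tested.

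Of 1431 alternative values for 85 named genes, 17 changed sign for a gene at least 1.5-fold apart over all wells. Sign changes of genes closer than that were not counted. In rows E to H Acbd7 was at 0.28 and Cib2 at 0.70, and without hair-cell-like wells at 4.09 and 0.019. In hair-cell-like wells Actr2 was at 0.43, Eya1 at -0.0053, Jag1 at 0.019, Nfat5 at -1.38, Pou4f3 at -0.26 and Rpl35 at 0.11. For maxima rows E to H over smartscribe rows A to D Pou4f3 was at -0.44 and Rpl35 at 0.33. In rows A to D Atoh1 was at -3.55, Egr2 at -0.98, Lhx3 at -0.997, Pou4f3 at -0.93 and Rpl8 at -0.48. The median of all measured genes there was -0.63, so Rpl8 stood above it.

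With 4 passed maxima wells in rows A to D and 2 hair-cell-like smartscribe wells in rows E to H, values within those sets rest on few cells. No animals are named, so the spread between animals is unknown.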

Other observations

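Summed over all wells, hair cell genes went both ways as they did within hair-cell-like wells. Otof was 493.3 against 170 CPM (log2 fold 1.54), Ptprq 324.7 against 124.4 (1.39), Myo7a 83.7 against 31.5 (1.41) and Triobp, an actin-bundling protein of the stereocilia rootlet, 186.4 against 45.3 from 22 and 12 wells (2.04). Cib2, Acbd7 and Ccer2 were lower with maxima over all wells too, at -0.79, -0.74 and -0.38. Coch, which encodes cochlin and whose reads came from mesenchyme-like wells alone with both enzymes, was 1459 against 1779 CPM (-0.29), while Otor was at -2.38 and Dcn at -3.46. In the otolith and acellular matrix list 4 of 9 genes were higher and 1 lower with maxima (0.45).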
